A study of Homo sapiens with 6 samples.

Results

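Mucin-type O-glycans begin with GalNAc on serine or threonine, and the sugars placed next decide which core the chain is built on. The genes described here encode the enzymes of that choice: C1GALT1 and its chaperone C1GALT1C1 (core 1), GCNT1, GCNT3 and GCNT4 (core 2), B3GNT6 (core 3) and B3GNT3 (extension of core 1). They were found through the RefSeq transcript in each probe set name. Of these 7 genes, 6 were matched, by 7 of the 1259 probe sets, among 927 named genes in all. GCNT4 matched no probe set by this route and was not analysed here. This does not show that GCNT4 is missing from the array, since 26 probe sets carry a RefSeq transcript that the gene table used does not hold. Of these, 1 may be an older GCNT4 transcript, and its values were not examined. The core 2 enzymes described are GCNT1 and GCNT3 only, and measured genes below are those matched to a probe set.

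The cells were HCT-15, a long-established line from a human colon cancer. Their RNA was measured with a biotin label on Affymetrix arrays, 3 of cells treated with 5-aza-2'-deoxycytidine and 3 of untreated cells. The drug is a cytosine analogue that enters DNA and depletes DNA methyltransferases. The sources used here do not give the dose, duration or vehicle, nor whether replicates were separate cultures, so the p-values measure the spread between these arrays, which may be technical. One array, untreated replicate 3, has a title that calls it treated. Its source name and treatment entry call it untreated. Leaving it out changed neither the direction nor the call of any core enzyme. The title of every array, treated ones included, also holds the word control, which does not tell the groups apart. Values are log2 values after RMA, and the number of arrays limits the precision. Array medians were 5.90 to 5.92 in treated arrays, against 5.81 to 5.88 in untreated arrays. These medians do not overlap, so a scaling offset between the groups cannot be told apart from the treatment. Of 11 listed markers of epithelial and colon cancer cells, MUC13 and LGALS4 were matched. MUC13 lay at 8.88 to 9.0 in treated cells and 7.82 to 8.04 in untreated cells, and LGALS4 at 8.97 to 9.13 in treated cells and 9.50 to 9.58 in untreated cells. Other defining markers, EPCAM and CDH1 among them, were not matched to a probe set.

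As background, core 1 is galactose linked to the first GalNAc. C1GALT1 makes it in the Golgi and needs the chaperone C1GALT1C1 (also called COSMC) to fold. Core 2 is core 1 with a GlcNAc branch, the arm on which many leukocytes and carcinoma cells carry sialyl Lewis x, a ligand of E-selectin. The submitters asked how glycan genes changed because this epitope had increased on the treated cells. GCNT1 makes core 2 only, whereas the mucin-type enzyme GCNT3 also makes core 4 from core 3 and blood group I branches. Core 3, made by B3GNT6, is the prominent core of normal colon mucin and is often lost in colorectal tumours. B3GNT3 adds GlcNAc to the galactose of core 1 instead of branching it.

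The core enzymes did not move together. C1GALT1 was 1.63-fold higher and GCNT3 1.45-fold higher in treated cells, while GCNT1 was 1.64-fold lower and B3GNT3 1.30-fold lower. Thus 2 of 6 measured genes rose and 2 fell, and C1GALT1C1 and B3GNT6 did not pass the test (limma, adjusted p under 0.05 over all 1259 probe sets). Across the array 37.3% of the 927 genes passed, 19.7% higher and 17.6% lower, and 4 of 6 genes is to be read against that share. These 927 genes are only a part of all human genes, so such shares and ranks do not describe the whole transcriptome. Of all 346 genes that passed, 52.9% were higher, but only 40.2% of those that passed after the arrays were centred on their medians. In 4 of the 6 genes the treated and untreated values did not overlap, against 48.0% of all genes. By mean level the core enzymes ran from B3GNT3, with 34.2% of probe sets at or below it, to C1GALT1C1, with 59.3%. C1GALT1, at 35.1%, was also among the dimmer sets, so the changes of B3GNT3 and C1GALT1 are less certain. The median log2 change of the 6 was -0.13, beside -0.0036 for all genes. In RNA of whole cultures, a change in every cell and a change in a share of the cells cannot be told apart.

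**Figure D1:**
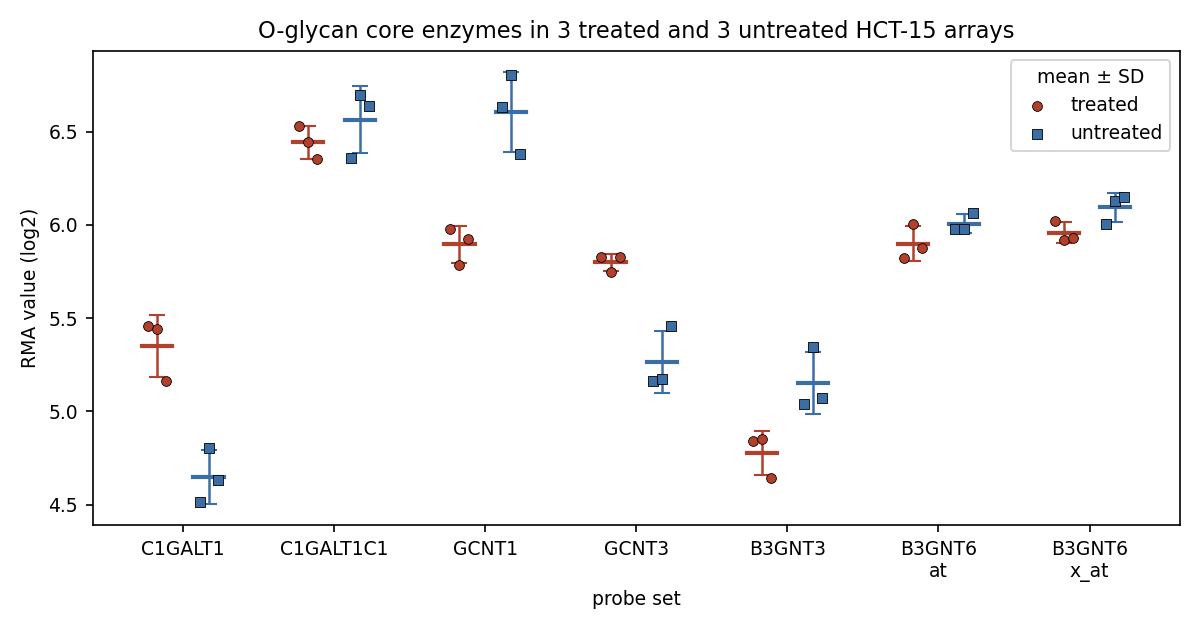
RMA values (log2, vertical axis) of the 7 probe sets in each array, with 3 treated arrays (circles) left of 3 untreated arrays (squares), and bars for mean and SD. The groups are apart for C1GALT1, GCNT1, GCNT3 and B3GNT3, and overlap for C1GALT1C1 and both B3GNT6 probe sets.

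The drug acts on DNA methylation, which in human cells lies mainly at cytosines followed by guanine (CG), so promoter sequences are shown for their CG content, for the genes that passed and have 1 annotated start. For GCNT1, with several starts, only counts are given. RefSeq windows of 300 bases (250 before to 50 after an annotated start, GRCh38.p14) were found for 5 of the 6 measured genes, matched by symbol, with 4 alternative starts for GCNT1. B3GNT6 had none. CG reads the same on both strands. It occurs at least once in 96.0% of all 35116 such windows, with a median of 14 per window. The windows of the 2 genes that rose, followed by that of B3GNT3, are printed 5′ to 3′ on the gene's strand with every CG in capitals. They lie at chr7:7182294-7182593 (C1GALT1), chr15:59611533-59611832 (GCNT3) and chr19:17794888-17795187 (B3GNT3), all on the plus strand.

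C1GALT1: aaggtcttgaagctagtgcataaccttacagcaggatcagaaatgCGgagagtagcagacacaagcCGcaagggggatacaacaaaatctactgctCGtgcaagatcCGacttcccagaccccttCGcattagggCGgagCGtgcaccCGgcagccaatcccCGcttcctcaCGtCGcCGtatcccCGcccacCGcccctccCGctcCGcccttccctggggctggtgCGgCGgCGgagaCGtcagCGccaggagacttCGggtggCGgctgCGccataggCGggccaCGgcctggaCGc

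GCNT3: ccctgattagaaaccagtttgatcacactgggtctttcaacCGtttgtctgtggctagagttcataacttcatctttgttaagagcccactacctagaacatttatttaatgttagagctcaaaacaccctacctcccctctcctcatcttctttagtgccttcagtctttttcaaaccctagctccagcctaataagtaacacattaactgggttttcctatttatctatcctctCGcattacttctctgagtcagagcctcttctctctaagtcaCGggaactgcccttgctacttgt

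B3GNT3: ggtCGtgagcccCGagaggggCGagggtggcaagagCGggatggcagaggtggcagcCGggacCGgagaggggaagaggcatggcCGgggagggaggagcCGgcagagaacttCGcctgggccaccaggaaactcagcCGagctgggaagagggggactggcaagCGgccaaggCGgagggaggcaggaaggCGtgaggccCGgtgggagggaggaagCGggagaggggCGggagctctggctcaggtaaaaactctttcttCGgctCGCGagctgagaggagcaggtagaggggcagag

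The 2 genes that rose stood far apart in this property. C1GALT1 holds 27 CGs and a G+C content of 64.3%, and 71.8% of all windows hold fewer CGs. GCNT3 holds 3 CGs and a G+C content of 42.3%, and 18.2% of all windows hold fewer. B3GNT3, which fell, lies between them with 19 CGs. C1GALT1C1, which did not pass the test, has the most at 37, in a window at chrX:120630005-120630304 on the minus strand. The 4 GCNT1 starts, all on the plus strand of chromosome 9, have 15, 19, 29 and 3 CGs in genome order, and which of them HCT-15 uses was not measured. Relative to what base composition alone would give, CGs were present at 0.88 times the expected number in C1GALT1, 0.25 times in GCNT3 and 0.66 times in B3GNT3. Methylation of these sites was not measured in the data used here, so its part in any change was not tested.

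**Figure D2:**
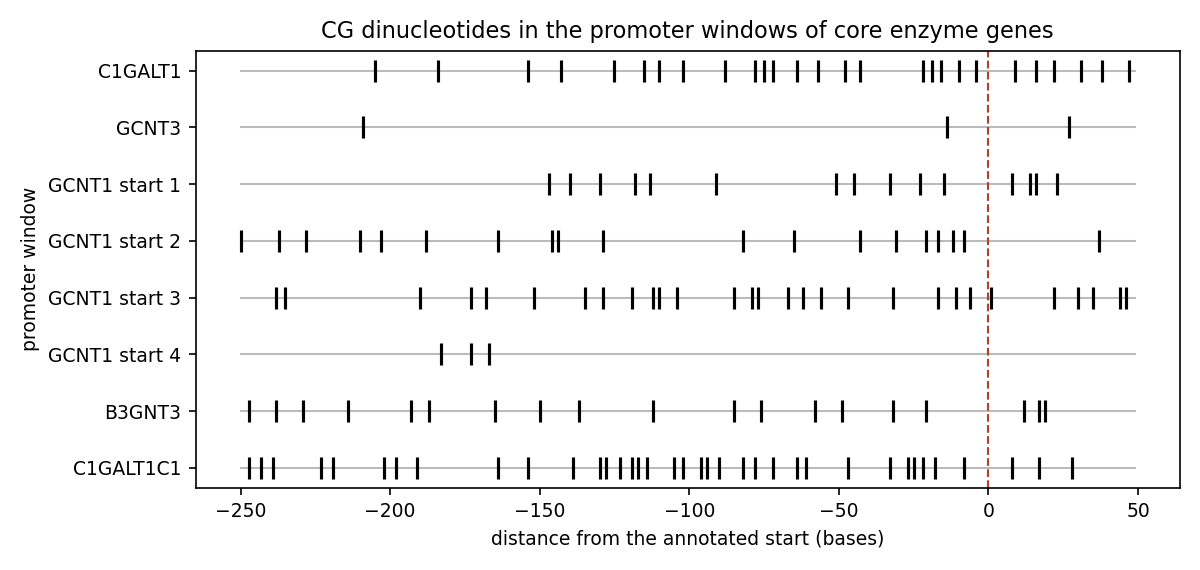
Position of each CG (tick) in the promoter windows, as distance in bases from the annotated start (dashed line). C1GALT1 has 27 ticks, GCNT3 has 3, and the 4 annotated starts of GCNT1 range from 3 to 29.

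Core 1 synthase had the largest rise of the core enzymes measured. The C1GALT1 probe set read 5.46, 5.44 and 5.16 in the treated arrays, against 4.52, 4.80 and 4.63 in the untreated arrays. All 3 treated values lay above all 3 untreated values, and the nearest pair was 0.36 apart. The log2 change was 0.70 ± 0.10 (SE, n = 3 each; 95% interval 0.48 to 0.93, adjusted p = 0.000291 by limma). By size it was the 66th largest rise among the 927 genes. Over 13 other settings of the fit the change stayed between 0.64 and 0.80. The brightness filter, the other spreads and the replicate block cannot alter this value. Its range comes from the scalings, the array weights and the fits without an array.

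C1GALT1C1, whose product keeps C1GALT1 from being degraded, did not rise with it. Its probe set read 6.53, 6.44 and 6.36 in treated cells, against 6.36, 6.70 and 6.64 in untreated cells. The groups overlapped, with the treated value lower in 7 of the 9 possible pairs of arrays. The log2 change was -0.12 ± 0.10 (SE, adjusted p = 0.398 by limma), with a 95% interval of -0.34 to 0.09. The size rests on single arrays, at -0.22 without untreated replicate 1 and -0.06 without untreated replicate 2, neither of which passed.

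The matched core 2 enzymes went in opposite directions. GCNT1, the single-function core 2 enzyme best known from leukocytes, read 5.98, 5.78 and 5.92 in treated arrays, against 6.63, 6.80 and 6.38 in untreated arrays. The lowest untreated value, that of the array with the conflicting title, was still 0.40 above the highest treated one. GCNT1 fell by 0.71 ± 0.11 on the log2 scale (SE; 95% interval -0.95 to -0.47, adjusted p = 0.000361 by limma), the 41st largest fall among the 927 genes. Without untreated replicate 3 the change was -0.82. The ending of its probe set name marks it as able to bind several transcripts, which may belong to one gene or to more, so its value is less certain.

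GCNT3, the mucin-type enzyme of glandular epithelium, was higher in treated cells, where it read 5.83, 5.75 and 5.83, against 5.16, 5.17 and 5.46 in untreated cells. The SD was 0.05 among the treated arrays and 0.17 among the untreated arrays, of which replicate 3 was the highest. The groups were 0.29 apart at their nearest values. The log2 change was 0.54 ± 0.09 (SE; 95% interval 0.34 to 0.74, adjusted p = 0.000742 by limma). Without untreated replicate 3, the array with the conflicting title, it was 0.63.

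The enzyme that extends core 1, B3GNT3, had the weakest change of the 4 genes that passed. It read 4.84, 4.85 and 4.64 in treated cells, against 5.04, 5.34 and 5.07 in untreated cells. The groups did not overlap, but only 0.19 separated the highest treated from the lowest untreated array. B3GNT3 fell by 0.37 ± 0.10 on the log2 scale (SE; 95% interval -0.59 to -0.16, adjusted p = 0.0115 by limma). This call was lost when the spread of each probe set was taken from its own values alone (adjusted p = 0.0985, in a range of 0.00731 to 0.0985 over all other settings), and without untreated replicate 2 the change was -0.28 (adjusted p = 0.0481).

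Core 3 synthase was represented by 2 probe sets with close values. The brighter B3GNT6 set read 6.02, 5.92 and 5.93 in treated cells, against 6.01, 6.13 and 6.15 in untreated cells. The other B3GNT6 set read 5.82, 6.003 and 5.88 in treated cells, against 5.98, 5.98 and 6.07 in untreated cells. In both sets the groups overlapped and most treated values were the lower ones, in 8 and 7 of 9 pairs of arrays. The log2 changes were -0.14 ± 0.07 and -0.11 ± 0.07 (SE, adjusted p = 0.179 and 0.323 by limma), with 95% intervals of -0.30 to 0.02 and -0.27 to 0.06. The brighter set passed after quantile normalization (adjusted p = 0.0441) and after median centring of the arrays (adjusted p = 0.0487), so the count of falls was then 3. Over all other settings its adjusted p ran from 0.0441 to 0.362. The other set moved to -0.07 without treated replicate 1. The name ending of the brighter set marks probes that can cross-hybridize with other genes.

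**Figure D3:**
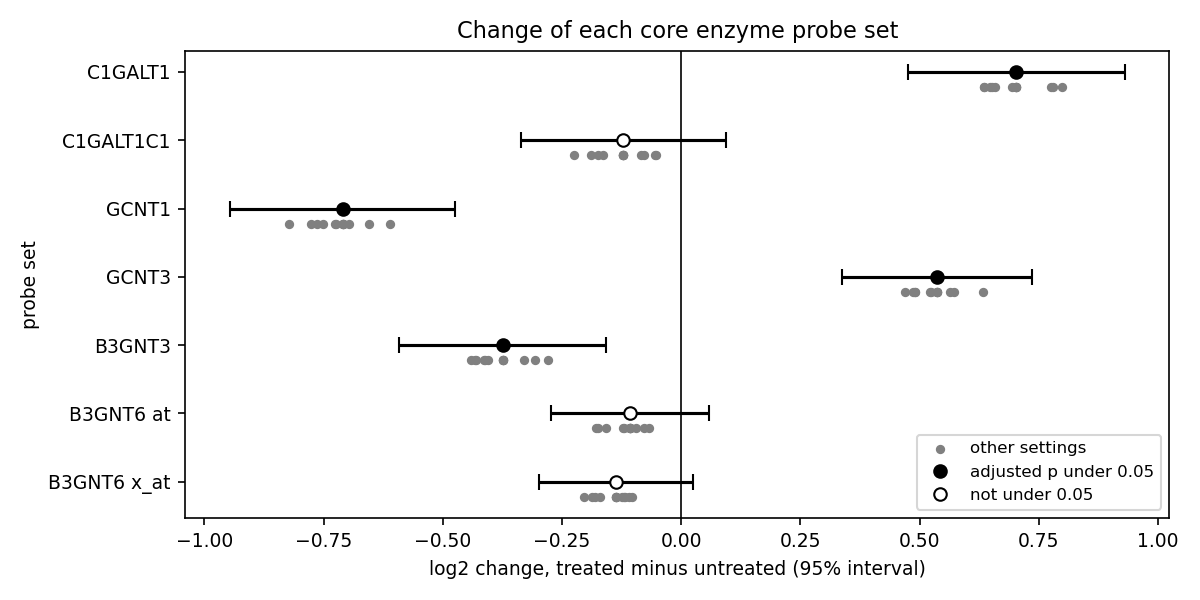
Log2 change of each probe set, treated minus untreated, with its 95% interval (black, filled where adjusted p is under 0.05) and its values under other settings of the fit (grey). Values of C1GALT1 and GCNT3 lie right of 0 and those of GCNT1 and B3GNT3 left of 0 under all of the settings run. Some settings leave the change as it is and alter only its test.

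Levels of different probe sets cannot be set against each other, but a difference within an array can be followed between groups. It was followed for 4 pairs of enzymes that share a step or compete for an acceptor, each set to 0 at the untreated mean. GCNT3 minus GCNT1 stood at 1.19, 1.30 and 1.24 in treated arrays, against -0.13, -0.29 and 0.42 in untreated arrays, a shift of 1.25 between the core 2 enzymes. C1GALT1 minus C1GALT1C1 stood at 0.84, 0.91 and 0.72 in treated arrays, against 0.07, 0.02 and -0.09 in untreated arrays, a shift of 0.82 between the synthase and its chaperone. These groups do not overlap in either pair, which for GCNT3 minus GCNT1 follows from the values of each enzyme.

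The other pairs set core 1 synthesis against the enzymes that use core 1. C1GALT1 minus GCNT1 shifted by 1.41, with SDs of 0.21 in treated and 0.19 in untreated arrays. B3GNT3 minus C1GALT1 shifted by -1.08, with SDs of 0.05 in both groups. In each of the 4 pairs an exact two-sided permutation test over arrays gave p = 0.1 (adjusted p = 0.1 over the 4 pairs), the smallest that 3 against 3 arrays allow, so the design cannot reach the threshold. Leaving out any array kept each shift in its direction. Except for C1GALT1 minus C1GALT1C1, this and the separation of the groups had to follow. Both enzymes of those pairs were already apart between groups, in opposite directions. The shifts restate the changes of the single enzymes and are no further evidence for them. Without untreated replicate 3, the array with the conflicting title, GCNT3 minus GCNT1 shifted by 1.46 and C1GALT1 minus GCNT1 by 1.52.

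**Figure D4:**
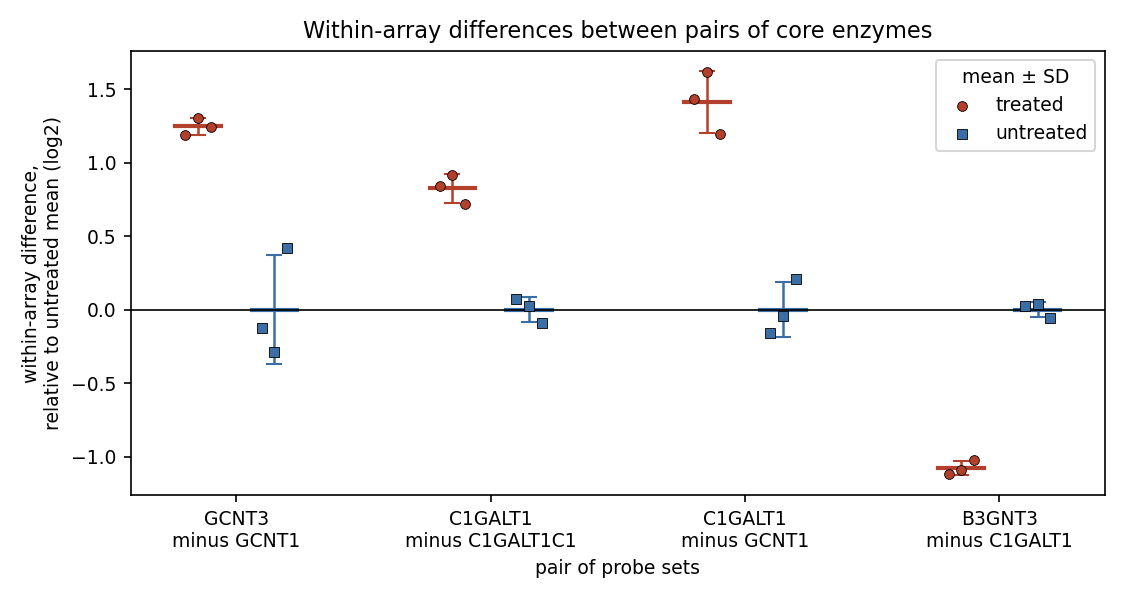
Difference between 2 probe sets within each array (log2, relative to the untreated mean), for 3 treated arrays (circles) left of 3 untreated arrays (squares), with mean and SD. The groups do not overlap in any of the 4 pairs, which outside C1GALT1 minus C1GALT1C1 follows from the values of the single enzymes. B3GNT3 minus C1GALT1 has the tightest groups, with an SD of 0.05 in each.

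Within a group, some arrays were often at the same end across the core enzymes, each taken by its brightest probe set. Treated replicate 1 was the highest treated array for 5 of the 6 genes, and untreated replicate 1 the lowest untreated array for 5 of 6. Untreated replicate 2 was the highest untreated array for 4 of 6. The lowest treated array was replicate 2 for 3 genes and replicate 3 for 3, and in the dimmer B3GNT6 set treated replicate 1 was the lowest. C1GALT1 and B3GNT3, whose means moved apart, deviated together within groups, at -0.19 and -0.14 in treated replicate 3 and at 0.15 and 0.19 in untreated replicate 2. How often each array stood at an end among all 927 genes was not counted, so this pattern cannot be called particular to the core enzymes. The source of this shared variation was not tested.

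The genes whose values most resembled each changed enzyme over the 6 arrays were taken by Pearson correlation, as a description, since the arrays of a group share their treatment and any property of the array. For C1GALT1 they were SMNDC1 (r = 0.998) and FUCA1 (0.993), for GCNT3 COLEC12 (0.987) and CLEC12A (0.984), for GCNT1 MUC20 (0.9995) and FGFR2 (0.995), and for B3GNT3 CXCL5 (0.995) and PIGC (0.985). From 17 (B3GNT3) to 49 (GCNT1) genes reached 0.95. MUC20 followed GCNT1 closely, reading 5.12, 4.90 and 5.06 in treated arrays, against 5.97, 6.22 and 5.68 in untreated arrays.

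The steps around the cores also held genes that passed in both directions. For most of these lists the share that passed was near the 37.3% of all genes, so their counts describe the genes and show nothing particular to a list. The GalNAc transferases that start the chains had 2 rises and 5 falls among 18 measured of 20 listed genes (38.9% passed), with a median log2 change of -0.07. GALNT6 (-1.37 ± 0.12) and GALNT12 (-0.96 ± 0.08) fell most, followed by GALNT11 (-0.69), GALNT5 (-0.33) and GALNT1 (-0.30). GALNT7 (0.59 ± 0.10), which prefers substrates that already carry GalNAc, and GALNT14 (0.42 ± 0.11) rose, and without treated replicate 2 only GALNT7 still passed, which left 1 rise. The other 11 did not pass, among them GALNT2 and GALNT3, at -0.06 and -0.09.

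Sialic acid can stop a chain at core 1 or at the first GalNAc. Of 6 measured genes of these steps 2 rose and 1 fell (50% passed). ST6GALNAC2, which puts sialic acid on the GalNAc of core 1, read 8.52, 8.52 and 8.64 in treated cells, against 7.63, 7.75 and 7.55 in untreated cells (log2 change 0.91 ± 0.08). ST3GAL1, which sialylates the galactose of core 1 and thereby competes with GCNT1, rose by 0.33 ± 0.08, and ST6GALNAC4, which acts on core 1 that is already sialylated, fell by 0.43 ± 0.07. ST6GALNAC1, the enzyme that makes sialyl-Tn, read 4.24, 4.41 and 4.15 in treated cells, against 4.09, 3.94 and 4.06 in untreated cells. These values do not overlap, but the gene did not pass the test (adjusted p = 0.0533 by limma).

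Lactosamine chains grow on core branches by alternating B4GALT and B3GNT enzymes. Among 13 measured genes 4 rose and 3 fell (53.8% passed), with a median log2 change of 0.05. B3GNT2, the main polylactosamine synthase, rose by 0.90 ± 0.09 and B3GNT8, which assists it, by 0.30 ± 0.07, while B3GNT9 (-0.68 ± 0.07) and B3GNT4 (-0.35 ± 0.07) fell. The galactosyltransferases B4GALT1 (0.37 ± 0.10) and B4GALT2 (-0.32 ± 0.08) moved in opposite directions. GCNT2, a relative of GCNT1 and GCNT3 that makes I branches rather than core 2, rose by 0.25 ± 0.08, a call lost in 6 of 13 other settings (adjusted p between 0.0262 and 0.108 over all of them), among them both scalings and the fits without treated replicate 3, untreated replicate 1 or untreated replicate 2. Quantile normalization gave 2 rises and 2 falls, and median centring gave 3 rises and 4 falls. Without untreated replicate 2, B4GALT1 and GCNT2 were not called and the rises numbered 2.

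Enzymes that cap or sulfate core 2 branches and related chains had 3 rises and 3 falls among 17 measured genes (35.3% passed). The rises were ST3GAL6 (0.43 ± 0.09), CHST6 (0.39 ± 0.08) and CHST2 (0.32 ± 0.08), sialyl- and sulfotransferases, and all were too dim to be among the 840 brightest probe sets, so that 0 rises were counted there. ST3GAL3 (-0.76 ± 0.09), the fucosyltransferase FUT3 (-0.51 ± 0.11) and the sulfotransferase GAL3ST4 (-0.30 ± 0.11) fell. The GAL3ST4 call was lost in 7 of 13 other settings (adjusted p between 0.0161 and 0.201 over all of them), including the fits without any 1 of the treated arrays and without untreated replicate 2, where the change was -0.18. After either quantile normalization or median centring there were 3 rises and 6 falls, and without untreated replicate 3 there were 5 rises and 3 falls.

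Mucins, the proteins that carry most of these chains, had 3 rises and 1 fall among 11 measured of 15 listed genes (36.4% passed). MUC1 rose by 1.30 ± 0.14 (0.98 and 0.90 in its other probe sets), MUC13 by 0.96 ± 0.08 and MUC4 by 0.62 ± 0.09, and MUC20 fell by 0.93 ± 0.12. After quantile normalization or median centring there were 3 rises and 2 falls. MUC2, the secreted mucin of goblet cells on which core 3 chains are typical, read 5.68, 5.69 and 5.65 in treated cells, against 5.51, 5.45 and 5.75 in untreated cells, and the groups overlapped (adjusted p = 0.425 by limma). Of 8 genes that supply donor sugars 37.5% passed, 1 higher and 2 lower. UAP1, which makes UDP-GlcNAc, the donor of GCNT1, GCNT3, B3GNT3 and B3GNT6, rose by 0.47 ± 0.08. GALT (-0.69 ± 0.07) and GALK1 (-0.43 ± 0.11), both of galactose breakdown by the Leloir pathway, fell. Quantile normalization gave 2 rises and 2 falls here, and median centring 1 rise and 3 falls. The Golgi transporters SLC35A2 and SLC35A3 did not pass, except for 1 of the other SLC35A2 probe sets (0.30, adjusted p = 0.013 by limma).

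**Figure D5:**
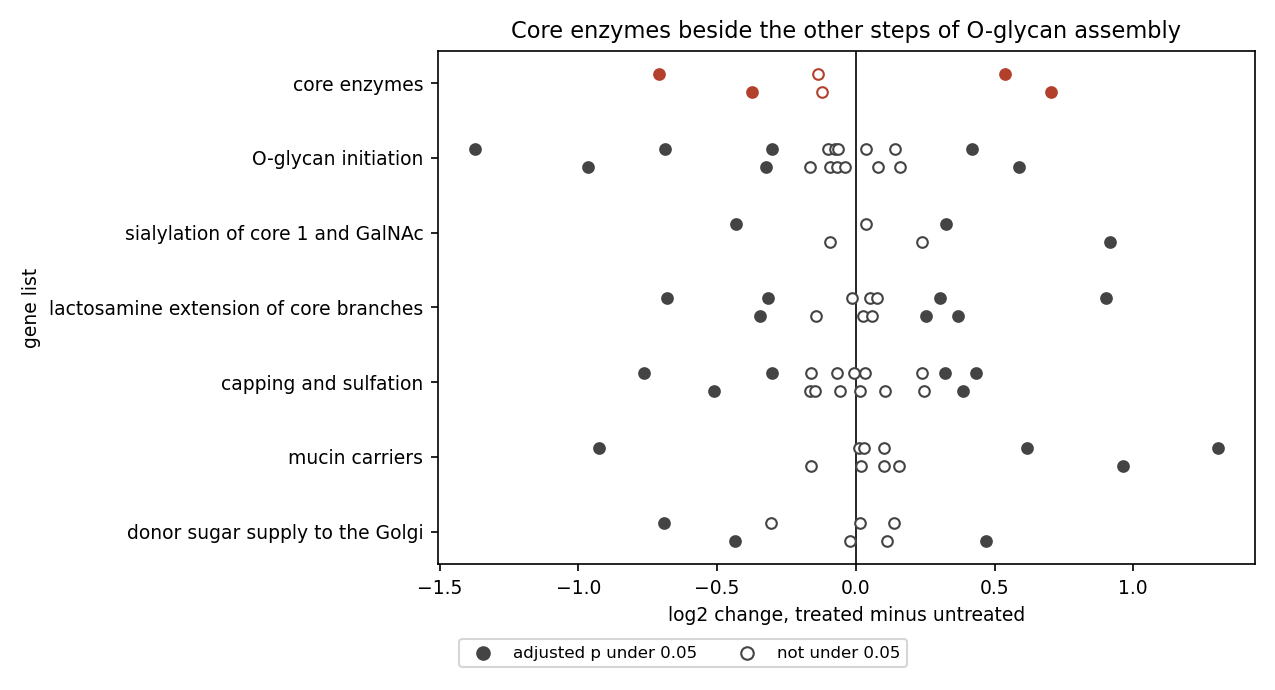
Log2 change, treated minus untreated, of every measured gene of the core enzymes (top) and of 6 lists of other O-glycan steps, 1 point per gene, filled where adjusted p is under 0.05. Every list holds filled points on both sides of 0.

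Few markers of other cell types were matched to a probe set. Of 6 measured of 13 leukocyte markers, CD33 rose (0.57) and CD22 fell (-0.25), and the summed log2 values were 29.6 to 30.4 in treated arrays, against 28.9 to 30.02 in untreated arrays. Of 5 measured of 10 endothelial and stromal markers, PECAM1 passed as higher although its groups overlapped (0.30) and PDGFRB fell (-0.48), with sums of 18.0 to 18.5 in treated and 17.9 to 18.9 in untreated arrays. RMA gives no value of 0. Their part in the changes of the core enzymes was not tested.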

How the data were processed

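The authors deposited 1 table of log2 values, 1 column per array and 1 row per probe set. RMA is named per the submitters' processing notes. It subtracts background, makes the arrays' distributions alike and combines the probes of a set. For its version and settings nothing is given in the sources used here. The range of the deposited values, 2.13 to 13.67, is the basis for reading them as log2. Detection calls were not used here, and RMA compresses differences between dim probe sets. No column was left unused (0).

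Probe sets were named by unversioned RefSeq transcript through a RefSeq gene table (GRCh38.p14). This gave 1043 sets 1 symbol each and left 216 unnamed. The brightest of several sets stood for a gene. All 1259 sets were fitted in R 4.3.3 with limma 3.58.1 (lmFit with a treatment term, eBayes, two-sided, Benjamini-Hochberg), and called at an adjusted p under 0.05. The steps were tested on simulated data.

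Named were all measured core enzymes, in each list the 2 genes with the smallest p and all that passed where they were 5 or fewer in a direction, and the 2 genes most like each changed enzyme. MUC2, ST6GALNAC1, GALNT2, GALNT3, SLC35A2 and SLC35A3 were added after their values were seen, and cell markers came from lists of their own. The genes and lists were chosen with earlier results of these data known. Other scalings, filters and spreads, and fits without each array, were also run.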

Additional observations from a re-analysis of the deposited data

How the results depend on the processing

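C1GALT1, GCNT1 and GCNT3 kept direction and call under all 13 other settings of the fit. Their adjusted p was at most 0.0288, 0.0322 and 0.0301 by limma, and C1GALT1C1 stayed uncalled. The fit of the 840 brightest probe sets held those with a mean over all arrays of at least 4.90. C1GALT1 (untreated mean 4.65), B3GNT3 (treated mean 4.78) and GCNT2 (untreated mean 4.88) were kept there only through their higher group. For these genes that setting is no support. With each probe set's spread taken from its own values alone, B3GNT3 (-0.37) was not called, leaving 1 core enzyme lower. The same setting gave 1 rise among GalNAc transferases, 1 in core sialylation and 2 in lactosamine extension, and 1 fall in donor supply. Core sialylation instead had 3 rises with array weights, with a spread that follows brightness and without treated replicate 3. It also had 3 when all probe sets of a gene were averaged. The brighter B3GNT6 set was called lower after quantile normalization (-0.19) and median centring (-0.20). Both scalings gave 6 falls among capping genes and 2 among mucins, and quantile normalization gave 2 rises in lactosamine extension and 2 in donor supply. Among the 840 brightest probe sets capping genes had 0 rises. With 1 array left out in turn, rises numbered 1 to 2 for GalNAc transferases, 2 to 4 for lactosamine extension and 3 to 5 for capping. With the numbers as a replicate block there were 2 rises and 2 falls among core enzymes (C1GALT1 adjusted p = 0.00259), and 167 genes rose and 144 fell in all, against 183 and 163 without it. The numbers were not taken as pairs, since same-numbered arrays deviated from their group means with correlations of -0.27, 0.04 and -0.11, and no array matched its own number best. Median centring gave 158 rises and 235 falls over all genes and quantile normalization 178 and 200, while the scalings moved the median change of all sets by under 0.1. Of 30 other genes that passed, 20 did so under every setting that held them. ST3GAL6 and CHST6 had 12 settings each, since they were not among the 840 brightest probe sets. The brightness filter, other spreads and the replicate block cannot change a direction. In all, 25 of 387 values lost the call and 0 reversed. GAL3ST4 accounted for 7 of these losses and GCNT2 for 6. No detection calls were used, so changes in dim sets are the least certain.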
